A study of Homo sapiens with 8 samples.

Results

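Keratin genes were followed from the basal to the suprabasal, hyperproliferative, mucosal, simple epithelial and hair follicle members in human keratinocytes with a knocked-down growth factor gene. The members are all rows of the RPKM table whose symbol is KRT followed by a number and at most 1 letter from A to C. RPKM stands for reads per kilobase of transcript, scaled to the number of mapped reads. The rule finds 55 of 21510 genes, of which 29 encode acidic type I keratins and 26 encode basic to neutral type II keratins. In RefSeq 28 of the type I genes lie on chromosome 17, while KRT18 lies on chromosome 12 with the 26 type II genes. A filter on low values, which asks for 2 or more libraries at 1 RPKM or above, was passed by 32 of the 55 keratins and by 12567 genes in all.

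The cells were N/TERT-2G, an immortalised human keratinocyte line, and all of them carried a hairpin that tetracycline switches on and that targets AREG, which encodes amphiregulin, a ligand of the epidermal growth factor (EGF) receptor. They were grown below confluence in serum-free medium with 0.4 mM calcium chloride, and RNA was taken after 60 h. The control group (3 libraries) had no tetracycline, the Tet group (3 libraries) had 1 µg/ml tetracycline, and the Tet+EGF group (2 libraries) had 1 µg/ml tetracycline with 20 ng/ml recombinant EGF. Batch 1 holds replicates 2 and 3 of control and of Tet, and batch 2 holds replicate 1 of both and the 2 Tet+EGF libraries. All groups share 1 cell line and 1 hairpin, and every sample with tetracycline also had the hairpin switched on, so tetracycline and knockdown cannot be told apart. Separate cultures for the replicates are not stated in the labels, and the p-values therefore cover only the spread between these libraries, which may be technical.

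Keratins form intermediate filaments as pairs of 1 type I and 1 type II chain. In the epidermis, cells of the basal layer make KRT5 with KRT14 and, as they leave that layer, switch to KRT1 with KRT10. Wounded or hyperproliferative epidermis makes KRT6, KRT16 and KRT17, noncornified mucosa makes KRT4 with KRT13, and simple epithelia make KRT8 with KRT18.

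The RPKM of AREG was 189 to 316 in the control libraries and 6.63 to 20.9 in the 5 libraries with tetracycline. Depth, estimated from the steps between low RPKM values, was 10.1 M to 13.7 M reads in batch 1 and 31.95 M to 35.4 M reads in batch 2, so low keratins were measured with less counting error in batch 2. At these depths 3 reads in a transcript of 1 kb correspond to 0.0847 to 0.0939 RPKM in batch 2 and to 0.219 to 0.297 RPKM in batch 1. All 11 keratinocyte markers passed the filter, with KRT5 and KRT14 among them. Of 10 fibroblast markers 3 passed, and their summed RPKM was 9.57 to 15.1 in control, 26.9 to 27.6 in Tet and 11.6 to 12.4 in Tet+EGF. Within that list DCN was at 0 to 0.08 in control and 7.04 to 9.01 in Tet, and COL1A1 at 1.02 to 2.41 in control and 7.49 to 8.82 in Tet. LUM, which did not pass, was at 0 to 0.015 in control and 0.187 to 0.213 in Tet, while COL1A2, COL3A1 and PDGFRA were at or under 0.026 in every library. FAP, which passed, overlapped, at 6.65 to 13.1 in control and 8.70 to 11.9 in Tet. Lower in Tet were THY1, at 0.228 to 0.395 in control and 0.041 to 0.094 in Tet, and COL6A3, at 0.022 to 0.052 and 0 to 0.005. Of 6 leukocyte markers CD68 and LCP1 passed, PTPRC was at or under 0.005 in every library, and the sum was 47.5 to 59.1 in control, 29.2 to 41.6 in Tet and 108.7 to 109.3 in Tet+EGF. The part of these markers in the keratin results was not tested.

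The keratin genes took up a large and varying part of the RPKM total. Their share of the summed RPKM was 7.49%, 6.38% and 6.61% in control, 11.97%, 12.3% and 13.3% in Tet, and 5.70% and 5.53% in Tet+EGF. Every Tet library was above every other library, and the Tet+EGF libraries were the lowest. The mean was 6.82% ± 0.588 (SD, n = 3) in control, 12.5% ± 0.703 (SD, n = 3) in Tet and 5.62% ± 0.124 (SD, n = 2) in Tet+EGF. A two-sided exact permutation test gave p = 0.1 for Tet against control, the smallest value that 3 libraries against 3 allow, and p = 0.2 for Tet+EGF against either group, the smallest for 3 against 2. Since all RPKM of a library are scaled to its depth, a larger keratin share lowers the values of other genes in that library.

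**Figure D1:**
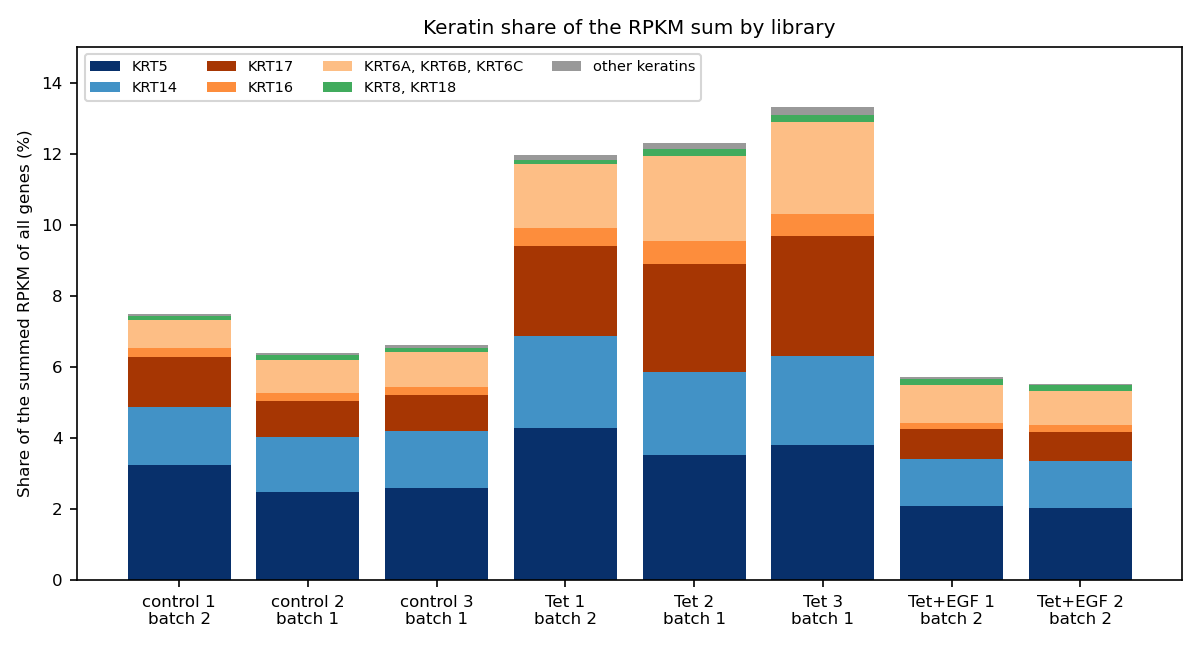
Share of the summed RPKM of all genes taken by keratin genes, in percent, in each of the 8 libraries, stacked by gene. The 3 Tet bars reach 11.97% to 13.3%, above the control bars at 6.38% to 7.49% and the Tet+EGF bars at 5.53% and 5.70%.

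Levels of the 32 keratins past the filter ran from 0.031 to 19392 RPKM. KRT5 had the highest keratin level in all 3 groups, and KRT14, KRT17 and KRT6A took the next places, with KRT14 in place 2 in control and in Tet+EGF and KRT17 in place 2 in Tet. KRT16, KRT6B, KRT6C, KRT8 and KRT18 followed, all with group means between 174.8 and 2601 RPKM. The suprabasal keratins were far lower: the control mean of KRT10, which pairs with KRT1 in differentiating cells, was 22.1 ± 2.87 RPKM (SD, n = 3) and that of KRT1 was 2.65 ± 1.90 RPKM (SD, n = 3). These cells thus carried KRT5, KRT14 and hyperproliferative keratin transcripts at high level in all groups. The main suprabasal pair was below these in every library, though KRT10 reached 117.7 RPKM in both batch 1 Tet libraries.

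**Figure D2:**
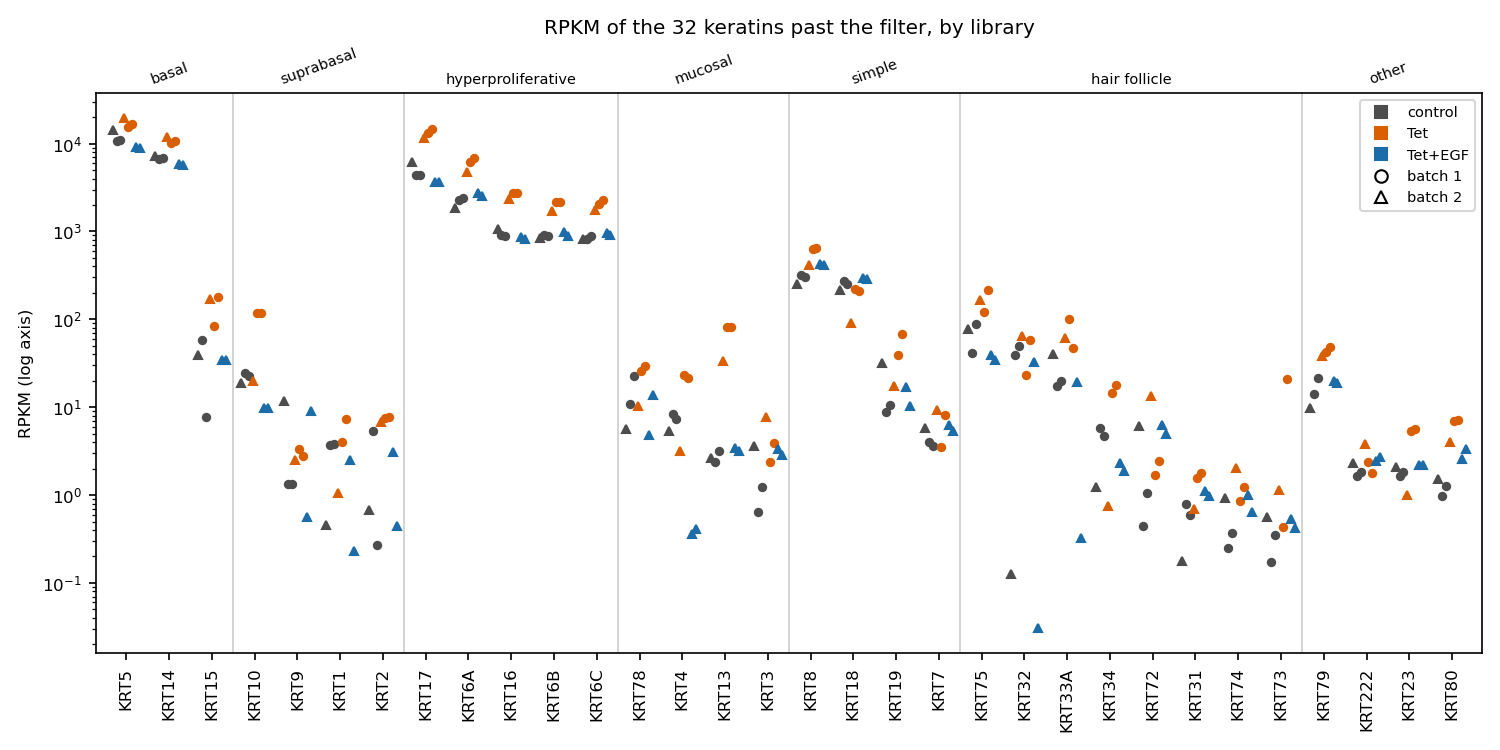
RPKM on a log axis of the 32 keratins past the filter, by class, with 1 point per library (grey control, orange Tet, blue Tet+EGF, circles batch 1, triangles batch 2). KRT5, KRT14 and the 5 hyperproliferative keratins lie at or above 821 RPKM in all libraries, and for each of them the Tet points lie above the control and Tet+EGF points.

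Within the keratin total, basal members had a smaller and hyperproliferative members a larger share in each Tet library than in the others. The basal class (KRT5, KRT14, KRT15) made up 65.0%, 63.3% and 63.5% of the keratin RPKM in control, 57.6%, 47.7% and 47.6% in Tet, and 60.0% and 60.6% in Tet+EGF. The hyperproliferative class (KRT6A, KRT6B, KRT6C, KRT16, KRT17) made up 32.9%, 33.8% and 33.6% in control, 40.6%, 49.5% and 49.6% in Tet, and 36.4% and 36.0% in Tet+EGF. Neither share overlapped between groups, and the batch 2 Tet library lay nearer to the other groups than the batch 1 Tet libraries. The exact permutation test gave p = 0.1 for Tet against control in both classes, again the smallest possible. The summed type I RPKM relative to the summed type II RPKM was -0.28, -0.28 and -0.34 on the log2 scale in control, -0.12, 0.01 and 0.01 in Tet, and -0.41 and -0.38 in Tet+EGF, so the 2 types were closest to equal in Tet.

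Upstream sequence was available for 15 of the 32 tested keratins in the RefSeq promoter table, which is built on GRCh38.p14. The 250 bases before the start of 4 genes are shown, all on the minus strand and written 5′ to 3′ in the direction of transcription. KRT5 is shown as the most abundant keratin, KRT79 as one that rose in both batches, and KRT10 and KRT4 as keratins whose change differed between batches. Capitals mark matches to 5 motifs searched on both strands. They are TGANTCA for AP-1, the dimer of JUN and FOS proteins, TATAAA for the box bound by the general transcription machinery, and CCACCC for the box bound by factors of the KLF family. The others are GCCNNNGGC for AP-2 factors and TTNNGNAA for C/EBP factors. KRT5 is at chr12:52520395-52520644, KRT79 at chr12:52834312-52834561, KRT10 at chr17:40822615-40822864 and KRT4 at chr12:52814117-52814366.
KRT5: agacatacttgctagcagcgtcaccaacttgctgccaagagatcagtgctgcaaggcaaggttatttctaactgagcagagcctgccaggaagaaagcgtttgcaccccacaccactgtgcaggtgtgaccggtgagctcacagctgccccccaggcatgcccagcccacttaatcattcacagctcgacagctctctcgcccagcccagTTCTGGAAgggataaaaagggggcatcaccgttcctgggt
KRT79: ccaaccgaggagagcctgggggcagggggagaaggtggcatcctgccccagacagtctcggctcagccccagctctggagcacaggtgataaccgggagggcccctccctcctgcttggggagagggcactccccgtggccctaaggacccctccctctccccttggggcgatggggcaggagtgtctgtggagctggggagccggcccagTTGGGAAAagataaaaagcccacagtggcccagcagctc
KRT10: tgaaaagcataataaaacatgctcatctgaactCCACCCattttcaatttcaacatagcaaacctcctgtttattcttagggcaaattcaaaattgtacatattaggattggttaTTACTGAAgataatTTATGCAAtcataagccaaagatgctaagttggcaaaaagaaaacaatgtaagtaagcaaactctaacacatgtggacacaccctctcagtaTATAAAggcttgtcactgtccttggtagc
KRT4: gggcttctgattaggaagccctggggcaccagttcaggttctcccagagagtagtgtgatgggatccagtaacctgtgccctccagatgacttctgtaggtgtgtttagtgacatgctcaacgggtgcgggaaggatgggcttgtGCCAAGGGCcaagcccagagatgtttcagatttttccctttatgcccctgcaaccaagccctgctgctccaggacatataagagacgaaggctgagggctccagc
The marked matches do not overlap one another. In KRT10 they are a CACCC box, a pair of C/EBP matches and a TATA box, in KRT5 and KRT79 a C/EBP match each, and in KRT4 an AP-2 match. Over the same 250 bases before the start of every gene in the table, TATAAA was in 6 of the 15 tested keratins and in 11.1% of all 27305 promoters. C/EBP and CACCC matches were in 5 of 15 each, against 33.6% and 30.4% of all promoters, and AP-2 matches in 5 of 15 against 19.7%. TGANTCA was in 0 of 15, against 6.60% of all promoters. A match is a run of letters and was not tested as a binding site.

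Tet was set against control to see which keratins differ when AREG is knocked down. Of the 32 keratins tested, 19 were higher and 1, KRT18, was lower in Tet (limma, adjusted p under 0.05 over 12567 genes). Among all genes tested 26.2% were called higher and 29.9% lower in this comparison. Among the 19, KRT31 and KRT74 were under 1 RPKM in all control libraries. They passed the filter only through libraries with tetracycline, which favours a higher call. The median log2 fold change was 1.21 for the 32 keratins and -0.04 for all genes. Without the filter on low values, 7 of the 19 higher calls were lost (KRT2, KRT5, KRT10, KRT14, KRT15, KRT17 and KRT75), and without the batch term 6 were lost (KRT2, KRT3, KRT10, KRT31, KRT72 and KRT74). KRT18 was lost in both of these fits, and each called 13 keratins higher. Fold changes are on the log2(RPKM + 0.5) scale from a fit with group and batch, and those of low keratins are understated by the pseudocount. In these bulk libraries a change in the number of cells of a kind and a change of RNA per cell cannot be told apart.

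The basal keratins all rose. KRT5, the type II keratin of basal cells, had 14170.5, 10757 and 11072 RPKM in control and 19392, 15309 and 16594 in Tet, with no overlap between the groups. Its log2 fold change was 0.52 (SE 0.06, adjusted p = 0.000373 by limma), and it was 0 with quantile scaling, which gives the top gene of each library the same value by construction. Without the filter on low values its fold change was the same and was not called (limma adjusted p = 0.84). KRT14, its type I partner, had 7167, 6743 and 6794 RPKM in control and 11739.8, 10036 and 10825 in Tet, again without overlap. Its log2 fold change was 0.65 (SE 0.06, adjusted p = 0.000116 by limma), its direction flipped with quantile scaling to -0.12, which did not pass, and without the filter it was not called (limma adjusted p = 0.476). The partners changed alike: the log2 ratio of KRT14 to KRT5 was -0.98, -0.67 and -0.70 in control and -0.72, -0.61 and -0.62 in Tet.

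KRT15, a type I keratin of basal cells and of hair follicle bulge cells, rose more and varied more. It had 39.7, 58.8 and 7.73 RPKM in control and 169.5, 83.9 and 181.3 in Tet. The control replicate 3 library was far below the other control libraries, and the groups did not overlap. The log2 fold change was 2.35 (SE 0.67, adjusted p = 0.0212 by limma), and with each library left out in turn it ran from 1.498 to 3.13, with the call lost without Tet replicate 3.

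All 5 hyperproliferative keratins rose by more than KRT5 and KRT14, with log2 fold changes from 1.19 to 1.45 and limma adjusted p from 1.19e-05 to 0.000285. KRT6A, a type II keratin induced in wounded epidermis, had 1845, 2308 and 2422 RPKM in control and 4780.1, 6243 and 6849 in Tet. Its log2 fold change of 1.44 (SE 0.07) was nearly the same in batch 1 (1.47) and batch 2 (1.37). KRT16, a type I keratin that pairs with KRT6, had 1079, 906 and 877 RPKM in control and 2331, 2739.6 and 2732 in Tet. KRT17, a type I keratin of hair follicles and wound edges, had 6219, 4431 and 4382 RPKM in control and 11493, 13249 and 14708 in Tet. For each of these genes every Tet library was above every control library. KRT17 was below KRT14 in all control libraries, at a log2 ratio of -0.20 to -0.63, and above it in both batch 1 Tet libraries, at 0.40 and 0.44, with -0.03 in the batch 2 Tet library.

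The close copies in this class limit which member a read belongs to. Of the 50-base windows of GENCODE v29 transcripts, 32.1% of those of KRT6A, 47.1% of KRT6B and 44.4% of KRT6C occur also in another gene, mainly in each other. KRT6B had a log2 fold change of 1.19 (SE 0.07) and KRT6C of 1.25 (SE 0.08), and how reads were shared between the copies is not stated, so the 3 KRT6 values are not independent. For KRT16, 16.5% of windows occur elsewhere, most in the pseudogene KRT16P3, and for KRT14, 16.8%, with KRT16 the most frequent partner at 7.895%. The KRT16 pseudogenes were higher in Tet libraries too: KRT16P2 had 134.9, 144.3 and 123.8 RPKM in control and 254.0, 272.6 and 257.0 in Tet. For KRT17 the share was 9.02%, and for KRT5 2.17%.

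Suprabasal keratins gave a split picture. KRT10 had 19.0, 24.6 and 22.8 RPKM in control and 19.8, 117.7 and 117.7 in Tet. The 2 Tet libraries of batch 1 were far above the controls, and the Tet library of batch 2 lay within their range. The fit gave a log2 fold change of 1.55 (SE 0.40, adjusted p = 0.0144 by limma), which joins 2.29 in batch 1 with 0.06 in batch 2. The call was lost without any 1 of the 4 control and Tet libraries of batch 1.

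KRT1, the type II partner of KRT10, was not called, at 0.55 (SE 0.49, adjusted p = 0.37 by limma). It had 0.459, 3.69 and 3.81 RPKM in control and 1.06, 3.99 and 7.28 in Tet, and the groups overlapped. KRT2, a type II keratin of the upper spinous and granular layers, had 0.673, 5.29 and 0.272 RPKM in control and 6.79, 7.59 and 7.68 in Tet. Tet libraries lay close together and above the controls, which were spread by a wide margin. The log2 fold change of 2.17 (SE 0.77, adjusted p = 0.0471 by limma) passed in 9 of the 20 fits run, and with the replicate block it did not (limma adjusted p = 0.063).

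KRT9, the type I keratin of palm and sole epidermis, was at -0.05 (SE 0.88, adjusted p = 0.969 by limma). It had 11.9, 1.33 and 1.34 RPKM in control and 2.52, 3.30 and 2.80 in Tet, so that 1 control library, the one in batch 2, lay above all Tet libraries and the other controls lay below them.

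KRT13 showed the largest log2 fold change of the 32 keratins. This type I keratin of noncornified stratified mucosa had 2.66, 2.41 and 3.15 RPKM in control and 33.7, 82.3 and 81.5 in Tet. Every Tet library was more than 10 times above every control library. The fit gave 4.25 (SE 0.24, adjusted p = 2.32e-05 by limma), and the batches gave 4.66 and 3.44. Only 0.561% of its 50-base windows occur in another gene, but 476 of its 2913 exon bases lie under exons of an antisense gene in GENCODE v29, and reads of the 2 strands cannot be told apart without strand, which the labels do not mention.

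KRT4, the mucosal type II partner of KRT13, rose with it in batch 1 only. It had 5.41, 8.32 and 7.36 RPKM in control and 3.17, 23.4 and 21.7 in Tet, above the controls in batch 1 and below them in batch 2. The log2 fold change of 0.75 (SE 0.39, adjusted p = 0.144 by limma) joins 1.47 in batch 1 with -0.69 in batch 2. With batch 1 alone KRT4 was called higher (limma adjusted p = 6.69e-05). The log2 ratio of KRT13 to KRT4, which was chosen after the values were seen, was -0.90, -1.60 and -1.11 in control and 3.22, 1.79 and 1.89 in Tet (exact permutation p = 0.1, the smallest possible).

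KRT3, a type II keratin of corneal epithelium, rose by 1.23 (SE 0.22, adjusted p = 0.00265 by limma). It had 3.61, 0.641 and 1.23 RPKM in control and 7.74, 2.38 and 3.89 in Tet, so each Tet library was above the controls of its own batch while the groups overlapped across batches. KRT78, a type II keratin of stratified epithelia, was not called at 0.79 (SE 0.39, adjusted p = 0.122 by limma), and with the replicate block it was (limma adjusted p = 0.0153). It had 5.62, 10.8 and 22.4 RPKM in control and 10.2, 25.5 and 29.2 in Tet.

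The simple epithelial partners KRT8 and KRT18 moved apart. KRT8, the type II member, had 255.5, 318.3 and 304.1 RPKM in control and 411.5, 625.2 and 640.2 in Tet, and every Tet library was above every control library. The fit put KRT8 at a log2 fold change of 0.91 (SE 0.08, adjusted p = 0.000119 by limma). KRT18, the type I member, had 217.1, 276.3 and 251.4 RPKM in control and 90.1, 223.1 and 211.2 in Tet. The lowest value was the batch 2 Tet library, and the batch 1 Tet libraries lay just below the batch 1 controls. The log2 fold change of -0.61 (SE 0.19, adjusted p = 0.0273 by limma) joins -0.28 in batch 1 with -1.26 in batch 2, and the call was lost with the replicate block (limma adjusted p = 0.106) and without control replicate 2, where the value was -0.66 (limma adjusted p = 0.0503).

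The ratio of KRT18 to KRT8 within a library, chosen after the values were seen, does not depend on scaling. On the log2 scale it was -0.23, -0.20 and -0.27 in control, -2.19, -1.48 and -1.60 in Tet, and -0.53 in both Tet+EGF libraries. The groups did not overlap, with an exact permutation p = 0.1 for Tet against control, the smallest possible. GENCODE v29 places 525 exon bases of KRT18 and KRT8 on top of each other on opposite strands, and 14.3% and 10.1% of their 50-base windows occur in other genes, most often in the pseudogenes KRT18P11 and KRT8P3.

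KRT19, a small type I keratin of simple and follicular epithelium, and KRT7, a type II keratin of glandular epithelium, were not called. KRT19 had 32.2, 8.85 and 10.5 RPKM in control and 17.2, 39.0 and 68.2 in Tet, higher with Tet in batch 1 and lower in batch 2. The log2 fold change of this gene was 1.28 (SE 0.63, adjusted p = 0.123 by limma). KRT7 had 5.80, 4.03 and 3.60 RPKM in control and 9.23, 3.57 and 8.05 in Tet, with overlapping groups and a log2 fold change of 0.51 (SE 0.25, adjusted p = 0.124 by limma).

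**Figure D3:**
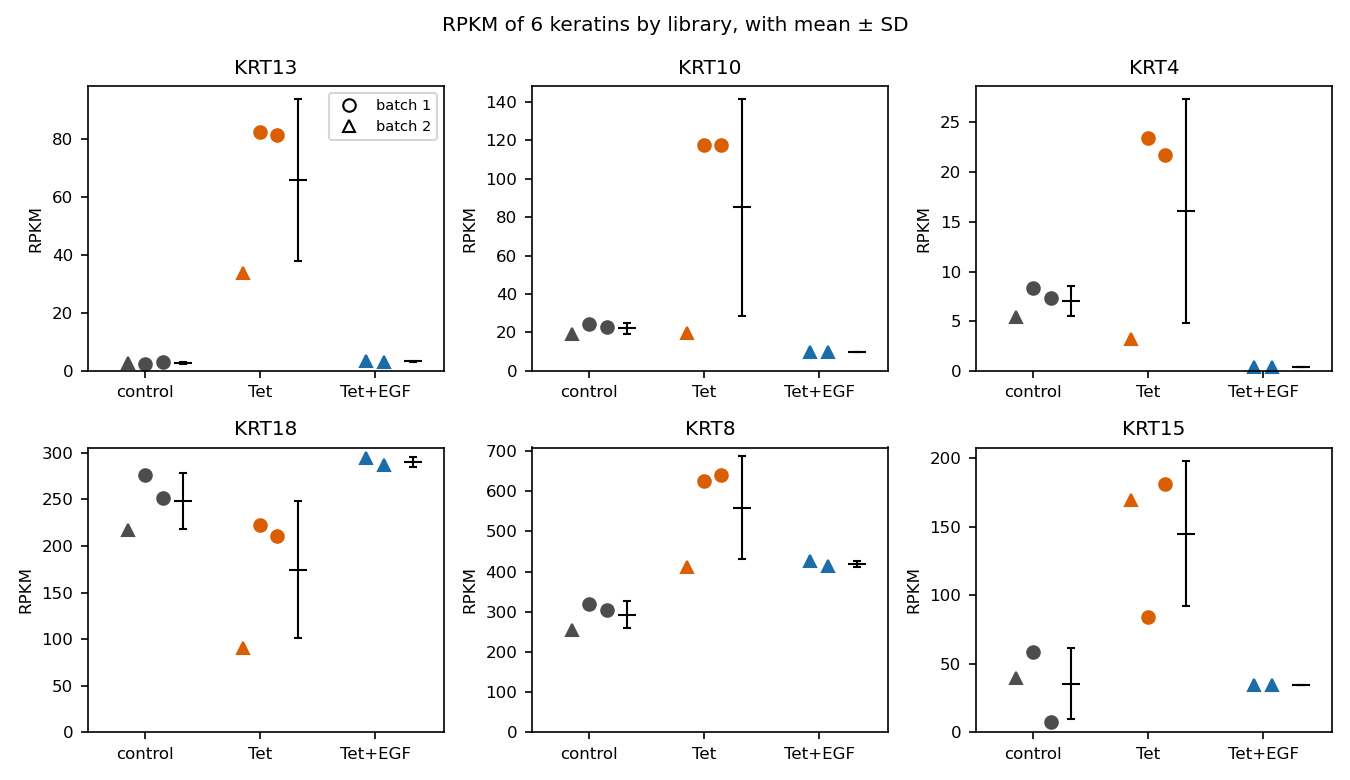
RPKM of 6 keratins by library, with the group mean ± SD (n = 3, 3 and 2) beside the points, circles for batch 1 and triangles for batch 2. For KRT10 and KRT4 the batch 2 Tet library lies with or below the controls, at 19.8 and 3.17 RPKM, while the batch 1 Tet libraries lie far above.

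Of 26 hair follicle keratins 8 passed the filter and were tested. With Tet 4 of the 8 were called higher and 0 lower, against 26.2% and 29.9% of all genes. KRT75, a type II keratin of the companion layer of the hair follicle, was the most abundant, with 78.0, 41.5 and 89.6 RPKM in control and 166.0, 120.8 and 216.0 in Tet and no overlap. Its log2 fold change was 1.29 (SE 0.31, adjusted p = 0.0109 by limma). KRT72 and KRT74, type II keratins of the inner root sheath, rose by 1.07 (SE 0.21) and 0.90 (SE 0.17), and KRT31, a type I keratin of the hair cortex, by 0.85 (SE 0.13). KRT72 had 6.14, 0.441 and 1.06 RPKM in control and 13.5, 1.69 and 2.43 in Tet, higher in batch 2 in both groups. Its call (limma adjusted p = 0.0044) was lost with the replicate block (limma adjusted p = 0.118), where the value was the same. KRT31 and KRT74 stayed low, at 0.176 to 1.79 and 0.251 to 2.04 RPKM. No control library of either reached 1 RPKM, so both passed the filter only through libraries with tetracycline.

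KRT32, KRT33A, KRT34 and KRT73 were not called, and single libraries stood far from their own group. KRT32, a type I hair keratin of the cuticle, had 0.125, 39.5 and 50.1 RPKM in control, 64.3, 23.4 and 58.2 in Tet, and 32.5 and 0.031 in Tet+EGF. A control library and a Tet+EGF library, both of batch 2, were at or under 0.125 RPKM while their group mates were at 32.5 to 50.1. KRT33A, a type I hair cortex keratin, had 39.8, 17.6 and 19.8 RPKM in control, 61.1, 102.1 and 46.9 in Tet, and 19.1 and 0.325 in Tet+EGF, so Tet+EGF replicate 2 was again the low library. Control and Tet libraries of KRT33A did not overlap, at a log2 fold change of 1.445 (SE 1.052, adjusted p = 0.277 by limma). With only these groups compared, which leaves out Tet+EGF, the value was the same and was called (limma adjusted p = 0.0179). KRT73, a type II inner root sheath keratin, had 21.1 RPKM in Tet replicate 3 and 0.171 to 1.14 in the other 7 libraries. KRT34 had 1.24, 5.87 and 4.68 RPKM in control and 0.742, 14.6 and 17.9 in Tet. KRT33A shares 27.5% of its 50-base windows with other genes, mainly KRT33B, and 1003 of the 2652 exon bases of KRT73 lie under an antisense gene.

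Among the 4 remaining keratins tested, KRT79 and KRT80 rose, where 26.2% of all genes were called higher. KRT79, a type II keratin of the hair canal and sebaceous duct, had 9.69, 14.1 and 21.2 RPKM in control and 38.4, 42.5 and 48.5 in Tet, with no overlap. The log2 fold change of this gene was 1.55 (SE 0.18, adjusted p = 0.000374 by limma). KRT80, a type II keratin that lies near desmosomes in differentiating cells, had 1.53, 0.983 and 1.28 RPKM in control and 3.97, 6.98 and 7.14 in Tet, a log2 fold change of 1.86 (SE 0.23, adjusted p = 0.00052 by limma). KRT23 and KRT222 were not called, at 0.69 (SE 0.40) and 0.32 (SE 0.14). KRT222 shares 33.5% of its windows with a gene that overlaps it on the same strand.

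The 23 keratins under the filter were low throughout. In 15 of them no library exceeded 0.453 RPKM, and 0 of the 23 were listed at 0 in all libraries. The other 8 reached 0.5 RPKM in a library: KRT12 and KRT76 of the mucosal class, KRT77, and the hair follicle keratins KRT33B, KRT36, KRT71, KRT81 and KRT84. KRT76, a type II keratin of the hard palate, had 0.482, 0.308 and 0.519 RPKM in control and 1.76, 0.552 and 0.819 in Tet. KRT36 had 12.7 RPKM in Tet replicate 3, the library with the high KRT73 value, and at most 0.2 in the other 7.

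The change with Tet was compared between batches, since batch 1 held 2 library pairs and batch 2 held 1. For 11 of the 32 keratins the change was lower in batch 2 (limma interaction, adjusted p under 0.05), and for 0 it was higher, with 1 at an unadjusted p under 0.05, KRT32, at 6.96 (limma adjusted p = 0.114). Batch 2 has 1 control and 1 Tet library, so this test takes the spread of its change from the other libraries and assumes that the lone libraries vary like them. Among all genes 17.4% were called lower and 9.24% higher in batch 2. The 11 were KRT4, KRT8, KRT10, KRT13, KRT16, KRT17, KRT18, KRT19, KRT23, KRT34 and KRT80. For KRT8, KRT13, KRT16, KRT17 and KRT80 values were higher with Tet in both batches, for KRT18 they were lower in both, and KRT10 was at 2.29 in batch 1 and 0.06 in batch 2. For KRT4, KRT19, KRT23 and KRT34 the sign was opposite, with 1.43 to 2.36 in batch 1 and -0.49 to -0.88 in batch 2. The basal pair was not called, with KRT5 at 0.55 in batch 1 and 0.45 in batch 2 and KRT14 at 0.62 and 0.71. Batch 2 was sequenced deeper and held a Tet library with less AREG RNA (6.63 RPKM against 16.7 and 16.2), and the part of either in these differences was not tested.

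**Figure D4:**
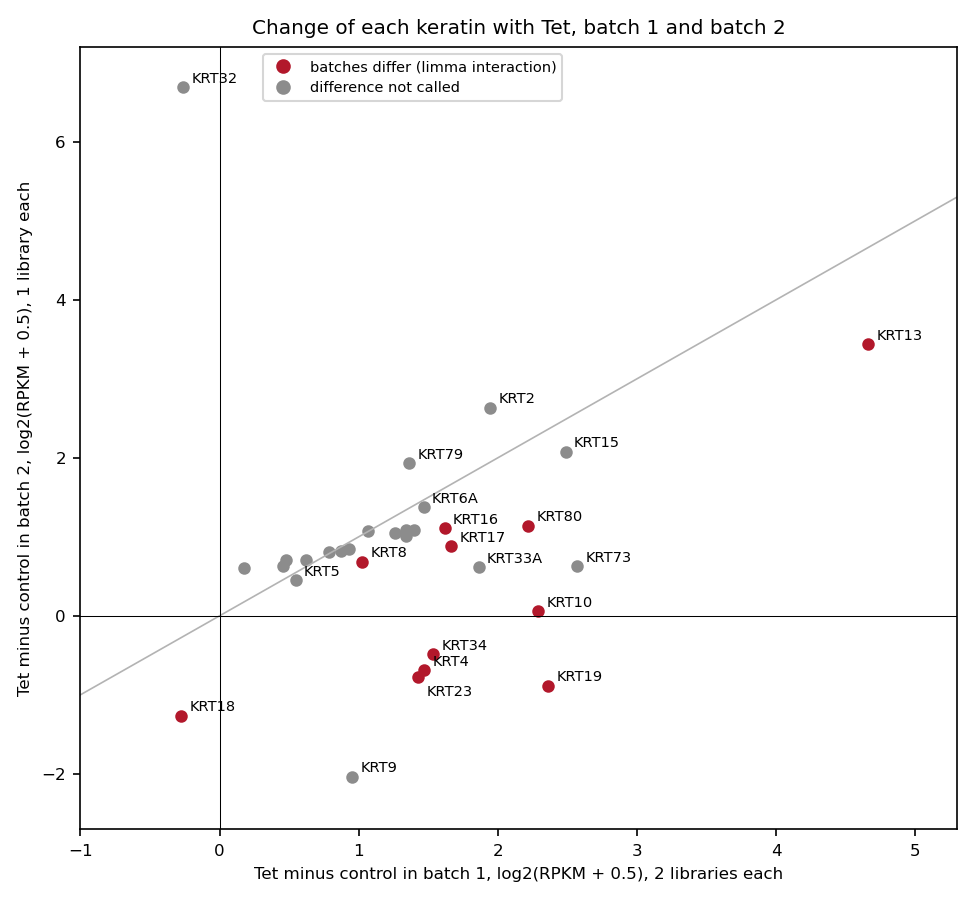
Difference between Tet and control on the log2(RPKM + 0.5) scale in batch 1 (x axis, 2 libraries each) and batch 2 (y axis, 1 library each) for the 32 keratins, with the line of equal change. Red points, the 11 keratins whose change differed between batches, all lie below the line, among them KRT10 at 2.29 and 0.06.

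Adding EGF to cells with tetracycline was compared with tetracycline alone. Of the 32 keratins 13 were lower and 1, KRT18, was higher in Tet+EGF than in Tet (limma, adjusted p under 0.05). Among all genes 9.15% were called lower and 9.82% higher. The median log2 fold change was -0.99 for the keratins and 0.02 for all genes. Without the filter on low values 9 of the 13 lower calls were lost (KRT3, KRT4, KRT5, KRT6A, KRT14, KRT17, KRT72, KRT74 and KRT75), and KRT18 was lost without the filter, without the batch term and with the replicate block. This comparison and the former share the Tet libraries, so a keratin that happens to be high in those libraries is moved in opposite directions in both. Both Tet+EGF libraries are in batch 2 beside 1 Tet library, and the fit takes the batch difference from control and Tet. The replicate block instead puts Tet+EGF replicate 2 with the replicate 2 libraries of batch 1. The fit with batch assumes the same batch difference in control and Tet. For KRT4, KRT13, KRT16, KRT17 and KRT18, all called here, the change with Tet differed between batches. In batch 2, with 1 Tet library, their differences between Tet+EGF and Tet were -2.044, -3.155, -1.471, -1.666 and 1.683, in that order.

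KRT5 had 9182 and 8923 RPKM and KRT14 had 5881 and 5772 RPKM in Tet+EGF, below all Tet and all control libraries. Against Tet they fell by 1.13 (SE 0.08, adjusted p = 0.000263 by limma) and 0.98 (SE 0.08, adjusted p = 0.000373 by limma) on the log2 scale, and KRT5 was at 0 with quantile scaling. KRT15 had 34.3 and 34.7 RPKM, below all 3 Tet libraries, and was not called at -2.42 (SE 0.89, adjusted p = 0.11 by limma).

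All 5 hyperproliferative keratins fell. KRT17 had 3625 and 3620.5 RPKM in Tet+EGF and fell by 1.93 (SE 0.20, adjusted p = 0.0012 by limma). KRT16 had 860.3 and 821 RPKM and fell by 1.64 (SE 0.14, adjusted p = 0.00051 by limma). KRT6A had 2719.9 and 2511 RPKM and fell by 0.90 (SE 0.09, adjusted p = 0.000878 by limma), with KRT6B at -0.95 and KRT6C at -0.99. All Tet+EGF values of these genes lay below all Tet values.

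Among mucosal keratins KRT13 fell by 3.56 (SE 0.32, adjusted p = 0.000647 by limma), to 3.48 and 3.21 RPKM, close to the control values of 2.41 to 3.15. KRT4 fell by 2.76 (SE 0.52, adjusted p = 0.0122 by limma), to 0.365 and 0.413 RPKM, below every control and Tet library. KRT3 fell by 1.31 (SE 0.29, adjusted p = 0.0207 by limma), and KRT78 at -0.28 was not called. Of the follicular keratins KRT75 fell by 2.27 (SE 0.41, adjusted p = 0.0109 by limma), to 39.2 and 34.2 RPKM, and KRT72 and KRT74 fell by 1.20 and 0.98. Without the batch term the calls of KRT3 (-0.39, limma adjusted p = 0.715), KRT74 (-0.47, limma adjusted p = 0.456) and KRT72, which became 0.44, were lost. With the replicate block they were lost too, at -0.47 for KRT3 (limma adjusted p = 0.511), -0.53 for KRT74 (limma adjusted p = 0.246) and 0.17 for KRT72 (limma adjusted p = 0.894).

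None of the 4 suprabasal keratins was called by limma in this comparison, with 1 at an unadjusted p under 0.05. KRT10 was lowest in Tet+EGF, with 9.90 and 9.75 RPKM, below all 6 other libraries, at a log2 fold change of -1.72 (SE 0.53, adjusted p = 0.0659 by limma). In batch 2, with 1 Tet library, the difference was -0.978. KRT10 passed in 4 of the 20 fits run, among them the fit with only the groups compared (limma adjusted p = 0.000234). KRT18 had 294.0 and 286.7 RPKM in Tet+EGF, above every Tet and control library, and was higher than in Tet by 1.36 (SE 0.24, adjusted p = 0.0105 by limma). KRT8 had 425.0 and 414.2 RPKM, just above the batch 2 Tet library and below the batch 1 Tet libraries, at -0.08 (SE 0.10, adjusted p = 0.63 by limma). Leaving out either Tet+EGF library, which leaves that group with 1 library assumed to vary like the others, ended the calls of KRT3, KRT4, KRT18, KRT72, KRT74 and KRT75.

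Tet+EGF was also set against control to see which keratins differed with both tetracycline and EGF present. Here 5 keratins were higher and 3 lower, against 16.0% and 16.2% of all genes (limma, adjusted p under 0.05). The median was 0.11 for the keratins and -0.01 for all genes. KRT6A (0.53, SE 0.09), KRT8 (0.83, SE 0.10), KRT31 (1.21, SE 0.17), KRT79 (0.76, SE 0.23) and KRT80 (1.12, SE 0.30) were higher. In batch 2, with 1 control library, their differences were 0.502, 0.714, 1.19, 0.952 and 0.766, in that order. KRT5 fell by 0.62 (SE 0.08, adjusted p = 0.00169 by limma), KRT14 by 0.33 (SE 0.08, adjusted p = 0.0161 by limma) and KRT4 by 2.01 (SE 0.52, adjusted p = 0.0254 by limma). KRT4 had 0.365 and 0.413 RPKM against 5.41 in the control library of the same batch, a difference of -2.73 on the log2(RPKM + 0.5) scale.

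KRT13 was not called against control, at 0.69 (SE 0.32, adjusted p = 0.138 by limma), nor were KRT16 at -0.19, KRT17 at -0.52, KRT6B at 0.24 and KRT6C at 0.26. In batch 2, with 1 control library, KRT13 was at 0.283, KRT16 at -0.361, KRT17 at -0.78, KRT6B at 0.165 and KRT6C at 0.175. With only the groups compared, KRT16 and KRT17 were called lower (limma adjusted p = 0.00714 and 0.00104). The log2 ratio of KRT13 to KRT4 was 2.20 and 2.02 in Tet+EGF against -0.90 to -1.60 in control, with KRT4 the lower of the pair. Most of the 8 calls against control depended on how batch was handled. With the replicate block KRT5 (limma adjusted p = 0.0846), KRT14 (0.21), KRT6A (0.154), KRT8 (0.0533), KRT31 (0.112) and KRT79 (0.0869) were not called, and the same 6 were lost without the batch term. The replicate block puts Tet+EGF replicate 2, of batch 2, with batch 1 libraries. With only the groups compared and batch kept, 0 of the 5 higher and 0 of the 3 lower calls were lost. There the difference rests on 1 control library, the one in batch 2. Without the filter on low values KRT4, KRT5, KRT6A, KRT14, KRT79 and KRT80 were lost. KRT5 was at 0 with quantile scaling, the call of KRT14 was lost with median-ratio and upper-quartile scaling, and KRT4 was lost with a pseudocount of 1. Without either Tet+EGF library KRT4, KRT14, KRT79 and KRT80 were not called, and KRT79 passed in 10 of the 20 fits run. Without control replicate 1, which leaves no control library in batch 2, 12 keratins were higher.

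**Figure D5:**
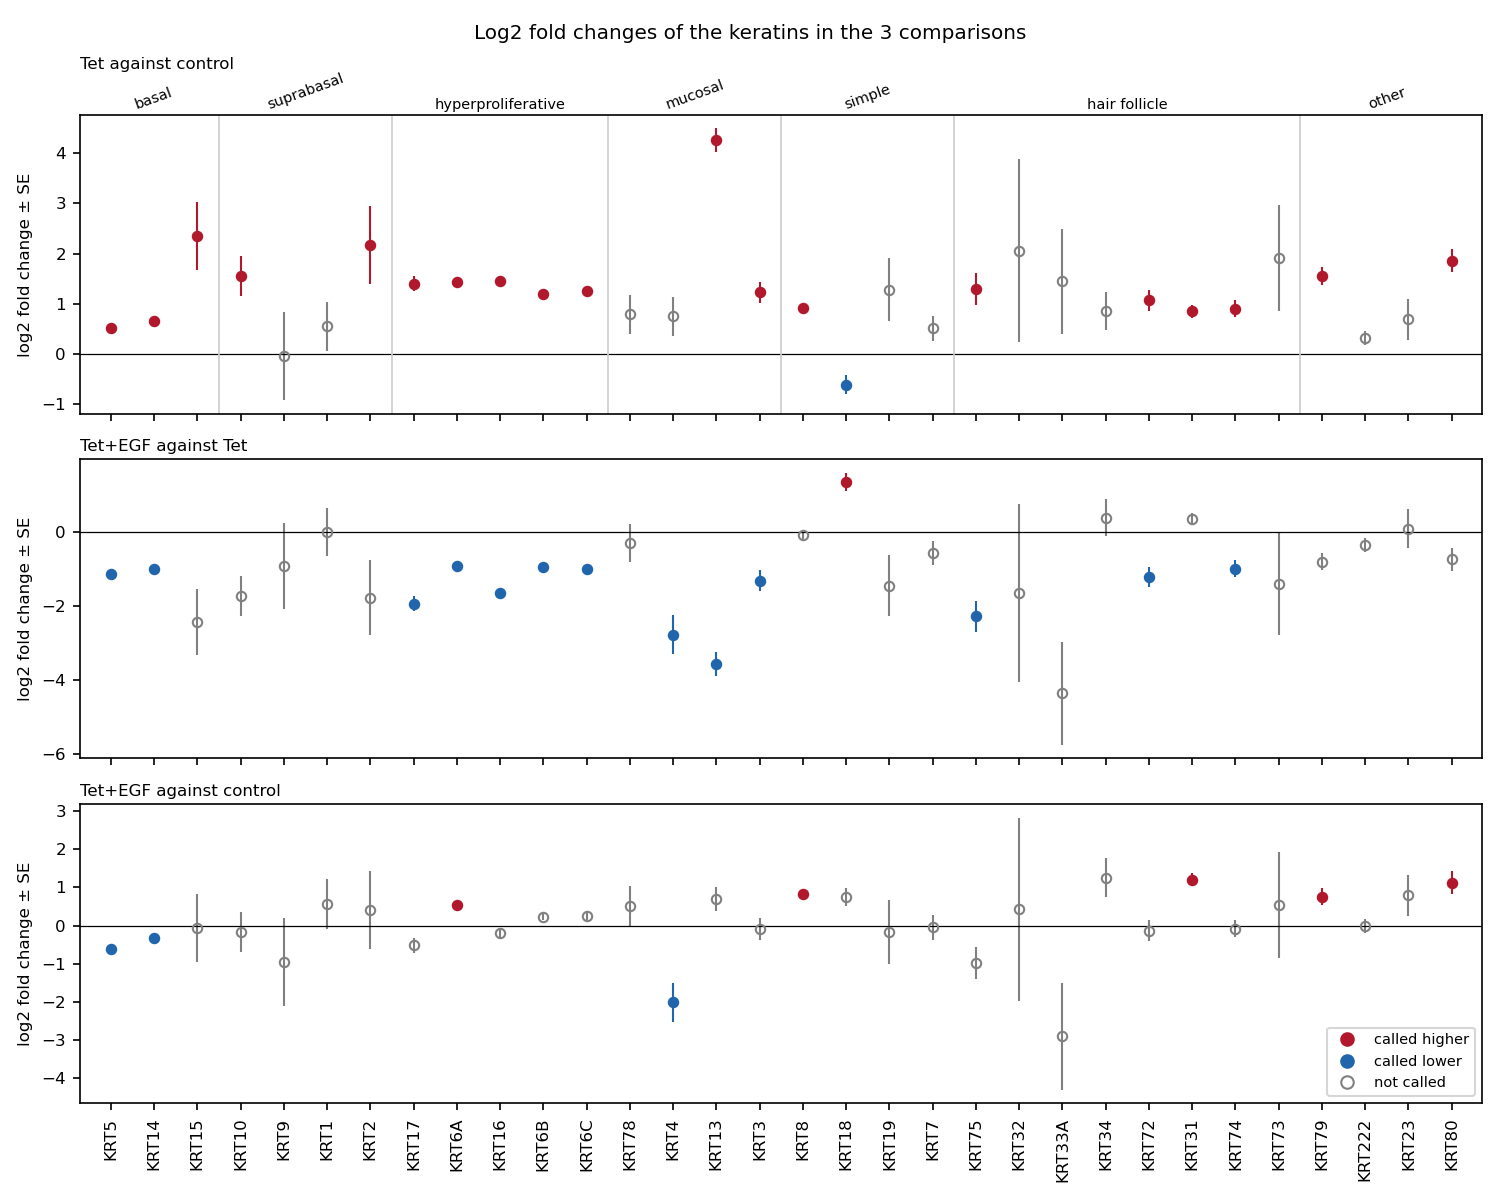
Log2 fold change ± SE (limma) of the 32 keratins in the 3 comparisons, red for called higher, blue for called lower and open grey for not called. KRT13 stands at 4.25 with Tet and -3.56 with EGF added, and KRT18 is the single keratin called lower with Tet and the single one called higher with EGF added.

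Other genes that work with keratins were read from lists, whose counts stand beside the shares of all genes called: 26.2% higher and 29.9% lower with Tet, 9.82% and 9.15% with EGF added to Tet, and 16.0% and 16.2% for Tet+EGF against control. Of 17 tested genes for proteins that bind or anchor keratin filaments, 9 rose and 5 fell with Tet, with a median of 0.38, and the 5 are near the 29.9% of all genes that fell. PKP1 and JUP, which link filaments to desmosomes, rose by 1.48 and 1.12, and PPL, periplakin, by 1.06, while ITGA6, the hemidesmosome integrin that anchors basal cells, fell by 1.78. With EGF added to Tet 4 rose and 7 fell, with PKP1 at -2.28, PPL at -1.47, the small heat shock gene HSPB1 at -2.38 and ITGA6 at 0.71. Against control, Tet+EGF gave 3 higher, near the 16.0% of all genes, and 5 lower, with PLEC, plectin, at 0.72 and ITGA6 at -1.07.

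Of 24 transcription factor genes known to act on keratin or epidermal genes, 14 rose and 3 fell with Tet, against 26.2% and 29.9% of all genes, with a median of 0.53. MAF, a factor of epidermal differentiation, had 0.239, 0.106 and 0.107 RPKM in control and 7.60, 1.48 and 1.52 in Tet, with a log2 fold change of 2.30. With EGF added 2 rose and 9 fell, against 9.82% and 9.15% of all genes, with TFAP2C at -0.87 and FOSL1, an AP-1 subunit, at 2.45. Against control, Tet+EGF gave 2 higher, with FOSL1 among them at 1.39, and 2 lower, FOSL2 at -0.80 and NOTCH1 at -1.11, both counts being under the shares of all genes (16.0% and 16.2%).

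Of 12 tested spinous and granular layer genes other than keratins, 10 rose and 0 fell with Tet by limma (26.2% and 29.9% of all genes), with a median of 1.011 and 10 of 12 at an unadjusted p under 0.05. DSC1 and DSG1, desmosomal cadherins of differentiating cells, rose by 1.68 and 1.70, SPINK5, a protease inhibitor, by 1.70 and CDSN, corneodesmosin, by 1.17. With EGF added 0 rose and 8 fell by limma (9 at an unadjusted p under 0.05), against 9.82% and 9.15% of all genes, with KRTDAP at -2.80, TGM1, a transglutaminase of the cornified envelope, at -2.45, DSC1 at -2.17 and SBSN at -1.82. Against control 1 gene was higher, CDSN at 1.44, and 3 were lower, KRTDAP at -2.65, TGM1 at -1.69 and SBSN at -1.59, against 16.0% higher and 16.2% lower among all genes.

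Of 7 tested genes of stratified mucosa, 4 rose and 0 fell with Tet by limma (6 at an unadjusted p under 0.05), against 26.2% and 29.9% of all genes, with a median of 0.65. SCEL, sciellin, rose by 2.97, from 0.483 to 1.09 RPKM in control to 7.04 to 12.7 in Tet, TMPRSS11E by 1.41, CNFN by 1.10 and EMP1 by 0.65. With EGF added SCEL fell by 2.15 and ECM1 rose by 0.70, and against control 3 were higher, ECM1 at 0.78, EMP1 at 0.42 and TMPRSS11E at 1.20. TMPRSS11E was under 1 RPKM in both of these groups, at 0, 0.109 and 0.102 in control and 0.358 and 0.542 in Tet+EGF. In batch 2, with 1 control library, its difference was 0.919. Of 6 tested intermediate filament genes other than keratins, 1, NEFL, rose by 1.13 and 3 fell with Tet, against the same shares of all genes. VIM, vimentin, had 48.8, 50.1 and 53.8 RPKM in control, 14.5, 5.303 and 4.06 in Tet, and 109.9 and 115.2 in Tet+EGF. It fell by 2.81 with Tet (SE 0.31, adjusted p = 0.000313 by limma) and rose by 3.46 with EGF added (SE 0.41, adjusted p = 0.00188 by limma), and the lamin genes LMNB1 and LMNB2 fell by 2.16 and 1.58 with Tet. With EGF added LMNB2 was higher by 0.47, and against control LMNB2 was lower at -1.11 and LMNB1 at -1.74. The lists hold few genes and were written with earlier results of these data known, so the counts are descriptions. Among the named genes, DSC1, DSG1, MAF, TMPRSS11E and NEFL reached 1 RPKM only in Tet libraries. They passed the filter only through the group where they were high.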

How the data were processed

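From N/TERT-2G keratinocytes 8 libraries of polyadenylated RNA were made with the Illumina mRNA-Seq kit and run on a Genome Analyzer IIx, per the labels' protocols. Reads were aligned with TopHat 1.3.3, per the submitters' processing notes. The authors deposited 1 table of RPKM values, while the sources used here give no counting tool, genome build or annotation. Read totals are not in the table, so depth was estimated from the size of 1 read in 3100 genes with 1 GENCODE v29 transcript. It assumes that length.

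The keratins, classes, gene lists and rules were chosen with earlier results of these data known. Each keratin past the filter is named, keratins under it only where they reach an RPKM of 0.5 in a library, and up to 4 called genes with the smallest p of each list and comparison. Some genes that this rule selects from the list of transcription factors are counted but not reported by name here. Ratios of KRT18 to KRT8, KRT14 to KRT5, KRT17 to KRT14 and KRT13 to KRT4 and the pseudogene values were added after values were seen, and ratios use RPKM + 0.5.

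The filter kept genes that reach 1 RPKM in 2 or more libraries. log2(RPKM + 0.5) was modelled over all 8 libraries on group and batch with lmFit and a trended eBayes of limma 3.58.1 (R 4.3.3), and p-values were Benjamini-Hochberg adjusted over 12567 genes, two-sided, threshold 0.05. A Tet by batch interaction was fitted likewise. Shares and ratios were compared with exact permutation tests over libraries. The fit and the depth estimate were tested on simulated data. Deviations from the group mean correlated between control and Tet libraries of the same number (0.476, 0.314 and 0.338). Libraries of the same number also share a batch in these groups, so the correlations cannot tell pairing from batch. A fit with the replicate block was run as an alternative. The Tet+EGF libraries gave -0.31, -0.263, -0.137 and -0.155, and no pairing was read from these values. The replicate block still grouped them by number. Tet+EGF replicate 2, of batch 2, thus shared a block with the replicate 2 libraries of batch 1. Alternatives were other pseudocounts (0.1 and 1), filters, scalings, eBayes settings, no batch term, the replicate block, fewer groups, single batches and leaving out each library. Sequence windows and exon overlaps come from GENCODE v29 and promoters from RefSeq GRCh38.p14. Python 3.11.15 with numpy 2.4.6, pandas 2.3.3, scipy 1.17.1 and matplotlib 3.10.9 was used.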

Additional observations from a re-analysis of the deposited data

Results flagged for a closer look

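The difference between Tet and control was not the same in both batches for 11 keratins, each lower in batch 2 than in batch 1 by the limma interaction of Tet with batch. On the log2 scale the difference between batches was -3.24 for KRT19 (limma adjusted p = 0.00621), -2.23 for KRT10 (0.000297), -2.21 for KRT23 (0.000885), -2.16 for KRT4 (0.000785) and -2.02 for KRT34 (0.00325). It was -1.23 for KRT13 (limma adjusted p = 0.00602), -1.08 for KRT80 (0.0206), -0.98 for KRT18 (0.00194), -0.78 for KRT17 (0.00629), -0.51 for KRT16 (0.0103) and -0.34 for KRT8 (0.0307). In batch 2 the value rests on 1 control and 1 Tet library, and the spread is borrowed from the other libraries.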

How the results depend on the processing

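With Tet, 0 keratins were called lower by limma without the filter on low values, without the batch term and with the replicate block, where 7, 6 and 2 of the 19 higher calls were lost, and the last 2 fits called 7 list genes lower each. With EGF added to Tet, no filter gave 0 higher and 4 lower keratins, no batch term 0 higher, the replicate block 0 higher, and only the groups compared 3 higher. For Tet+EGF against control, no filter gave 3 higher and 0 lower keratins, a mean RPKM of at least 5 gave 3 higher, no batch term 1 higher and 1 lower, the replicate block 1 higher, and only the groups compared 7 lower. List genes there were 7 lower without the batch term, 5 higher with the replicate block, and 14 higher and 27 lower with only the groups compared. A mean RPKM of at least 5, which tests fewer genes, gave 25 list genes higher with Tet and 16 lower with EGF added. Between batches no filter gave 1 keratin higher and 5 lower. Leaving out 1 library at a time, keratins called with Tet ran from 17 to 22 higher and 0 to 1 lower, with EGF added from 0 to 3 higher and 8 to 18 lower, and for Tet+EGF against control from 3 to 12 higher and 1 to 7 lower. List genes ran from 32 to 48 higher and 9 to 11 lower with Tet, from 6 to 13 higher and 15 to 44 lower with EGF added, and from 4 to 32 higher and 6 to 28 lower for Tet+EGF against control. Signs were compared over the fits and over the values of batch 2 alone, which are not a fit. With Tet the sign was opposite in at least 1 of these for 7 of 32 keratins. Of these, KRT4, KRT19, KRT23 and KRT34 had it only in batch 2 alone. With EGF added the sign was opposite for 10 keratins, and for Tet+EGF against control for 16. Those where the reported or the opposite value was called were -0.12 for KRT14 (quantile scaling) and 0.95 for KRT9 (batch 1 alone) with Tet, 0.44 (no batch term) and 0.17 (replicate block) for KRT72, -1.37 for KRT23 and -0.95 for KRT34 (both without Tet replicate 1, and up to 0.83 and 1.07 with other libraries left out) with EGF added, and 1.31 for KRT10 and 2.00 for KRT19 (both without control replicate 1, and down to -0.92 and -1.25 with others left out) for Tet+EGF against control. The cause was not tested. With Tet, KRT6A, KRT6B, KRT6C, KRT8, KRT13, KRT16, KRT79 and KRT80 passed in every fit that gave a value, and with EGF added KRT6B, KRT6C, KRT13 and KRT16 did. Batch 2 alone has 1 library each for Tet and control and gives values with no test, and low keratins get no value with a mean RPKM of at least 5. Counting error is larger in batch 1.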
